A study of Homo sapiens with 12 samples.

Results

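The 10 genes described here encode secreted proteins of the extracellular matrix: the fibrillins FBN1 and FBN2, the latent TGF-beta binding protein LTBP1, the fibulins FBLN1, FBLN2 and FBLN5, the EMILINs EMILIN1, EMILIN2 and EMILIN3, and lumican (LUM). They were taken by gene symbol from the 58735 genes of the deposited tables, and each symbol matched 1 row. Of the 10 genes, 9 were among the 17115 genes that passed the filter on low counts, and FBLN2 was not.

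Fibrillins are long glycoproteins that assemble outside the cell into microfibrils, the beaded filaments that scaffold elastin in elastic fibres and stand alone in tissues such as the ciliary zonule of the eye. LTBP1 holds latent TGF-beta in that matrix, fibulins and EMILINs join microfibrils to elastin, basement membranes or cells, and lumican is a small leucine-rich proteoglycan that binds collagen fibrils. Fibrillin-containing microfibrils are also laid down in the kidney glomerulus, and fibrillins carry binding sites for heparan sulfate, the sugar chain that EXT1 helps to polymerize.

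Messenger RNA was sequenced from HEK293, a human embryonic kidney cell line used to produce biologics and viral vectors, in 4 groups of 3 libraries. The groups, named after the labels, are WT adherent (unmodified cells) and EXT1kd adherent (EXT1 knockdown), grown attached to flasks in DMEM with fetal bovine serum and detached with trypsin, and WT suspension and EXT1kd suspension, grown without serum in EX-CELL 293 medium on a shaker at 120 rpm. All were kept at 37 °C under 5% CO2 and collected after 5 passages. The culture comparison joins attachment, serum, medium, shaking and trypsin, whose parts cannot be told apart. The labels leave unsaid the method of the knockdown, whether its cells were a clone or a pool, and whether the 3 libraries of a group began as separate cultures. A p-value here weighs a difference against the spread of such libraries, and that spread may be technical only.

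Library totals lay between 13.9 and 21.4 M reads assigned to genes. The WT adherent libraries differed most among themselves, with a chi-square per degree of freedom of 10.6 to 23.6 between pairs, against 2.50 to 10.1 in the other groups. EXT1 stood between 51.8 and 53.2 CPM (counts per M reads, TMM-scaled) in WT adherent libraries and between 11.9 and 12.5 CPM in EXT1kd adherent libraries, and between 47.9 and 54.6 CPM in WT suspension libraries and between 13.1 and 15.4 CPM in EXT1kd suspension libraries, and each library matched its label. Of 4 genes that mark HEK293 cells (NEFL, NEFM, INA, PAX2) none was at 0, and their summed level ran from 136 to 210 CPM over the 12 libraries. Of 9 fibroblast markers, COL1A2 reached at most a mean of 0.0202 CPM in any group and COL1A1 carried most of the sum, which was 19.2 to 22.4 CPM in WT adherent, 29.1 to 33.8 in EXT1kd adherent, 20.5 to 23.5 in WT suspension and 19.1 to 20.03 in EXT1kd suspension libraries. The sum of 4 chondrocyte markers, nearly all of it COL2A1, was 74.4 to 88.3 CPM, 86.1 to 92.8, 234 to 250 and 92.9 to 104 CPM in the same order, and that of 5 smooth muscle markers, mostly ACTA2 in suspension, was 5.85 to 6.63, 5.18 to 6.73, 27.7 to 29.1 and 16.7 to 18.9 CPM. These sums move with some of the groups compared below, and their part in the results was not tested.

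Per length, FBN2 was the highest of the 10 genes in every group. Its level was 18.0 ± 2.72 FPKM (fragments per kilobase and M reads, as deposited; SD, n = 3) in WT adherent, 19.7 ± 0.861 in EXT1kd adherent, 16.8 ± 0.332 in WT suspension and 18.7 ± 1.77 in EXT1kd suspension cells. The gene next to it changed with the group. LTBP1 came next in WT adherent cells at 10.6 ± 1.35 FPKM and in EXT1kd suspension cells at 11.2 ± 0.0761 FPKM. EMILIN2 came next in EXT1kd adherent cells at 16.9 ± 0.483 FPKM, with a range below that of FBN2. In WT suspension cells FBLN1 at 12.4 ± 0.681 FPKM and LTBP1 at 12.4 ± 0.732 FPKM overlapped and could not be ordered.

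Lower in the order, the 4 groups also differed in which genes overlapped. In WT adherent cells the ranges of FBLN5 and EMILIN1 overlapped, at 0.855 and 0.798 FPKM. In EXT1kd adherent cells FBLN5 overlapped LUM, at 1.57 and 1.08 FPKM, and EMILIN1 overlapped FBN1, at 0.575 and 0.531 FPKM. In WT suspension cells FBN1 and EMILIN3 overlapped at 4.16 and 4.13 FPKM, as did LUM and FBLN5 at 3.33 and 2.69 FPKM. In EXT1kd suspension cells EMILIN2 and FBN1 overlapped at 3.43 and 3.12 FPKM, and EMILIN3 and FBLN5 at 2.27 and 2.10 FPKM. FBLN2 was last in every group, with at most 0.0985 FPKM on average. The summed level of the 10 genes was 41.2 ± 3.89 FPKM in WT adherent cells, 56.9 ± 0.491 in EXT1kd adherent, 58.6 ± 1.54 in WT suspension and 51.5 ± 0.850 in EXT1kd suspension cells. EMILIN2 held 9.92% of that sum in WT adherent cells and 29.8% in EXT1kd adherent cells, while FBLN1 held 7.49% in WT adherent and 21.2% in WT suspension cells.

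**Figure D1:**
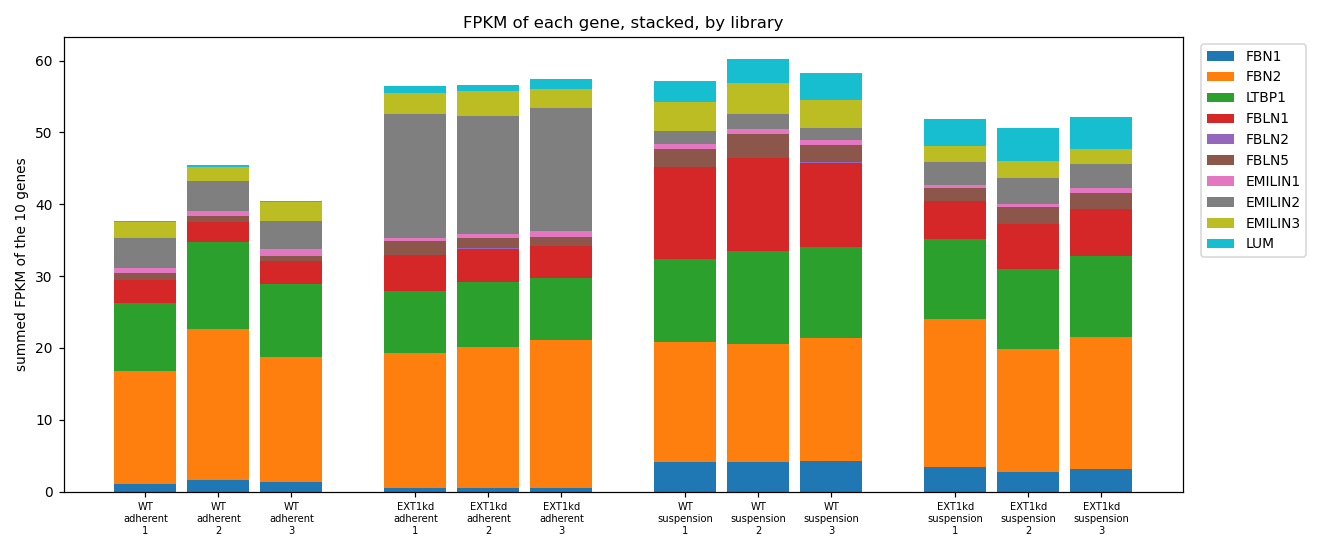
FPKM of the 10 genes stacked for each of the 12 libraries, with the library on the horizontal axis and the summed FPKM on the vertical axis. FBN2 forms the largest block in every library, EMILIN2 is wide in the 3 EXT1kd adherent libraries (16.4 to 17.2 FPKM) and FBLN1 is wide in the 3 WT suspension libraries (11.7 to 12.9 FPKM).

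In adherent culture the knockdown cells held more EMILIN2, LUM, FBLN5, FBLN1 and EMILIN3 RNA and less FBN1 and LTBP1 RNA than wild type. So 7 of the 9 genes tested passed edgeR's quasi-likelihood test, 5 of them higher and 2 lower, where 27.1% of all 17115 genes passed, 15.2% as higher and 11.8% as lower. The genes, and the lists used below, were chosen with earlier results of these data known. Here and below, shares of all genes therefore describe the background and do not test whether the chosen genes changed more often. The CPM ranges of the groups did not overlap for 6 of the 9, nor for 36.1% of all genes. Their median log2 fold change was 0.41, against -0.01 over all genes tested. The summed fibroblast markers went from 19.2 to 22.4 CPM in WT adherent up to 29.1 to 33.8 CPM in EXT1kd adherent libraries. Most of that rise was COL1A1, with means of 17.2 and 27.5 CPM. The means of PDGFRA, THY1, POSTN and FAP were also higher, while those of COL3A1, DCN, PDGFRB and COL1A2, the last near 0, were lower. The sum of 6 epithelial markers went from 366 to 437 CPM up to 555 to 566 CPM, and the part of either list was not tested. In suspension culture EMILIN2 was again higher in the knockdown cells, and FBLN1, EMILIN3 and FBN1 were lower, which made 4 of 9 genes past the threshold where 20.9% of all genes passed, 8.29% as higher and 12.6% as lower. Between these groups the summed chondrocyte markers went from 234 to 250 CPM down to 92.9 to 104 CPM and the smooth muscle markers from 27.7 to 29.1 CPM down to 16.7 to 18.9 CPM. The epithelial sum went from 467.8 to 516.5 CPM down to 387.9 to 442.9 CPM, though the means of CDH1 and KRT5, the latter near 0, were higher. The part of these lists was not tested. The ranges of 7 of the 9 did not overlap, nor did those of 43.8% of all genes. Their median was -0.36, against -0.001 over all genes. Of all genes past the threshold in suspension, 39.7% were higher with TMM scaling and 52.0% without it, while the split of these 9 genes stayed at 1 higher and 3 lower. RNA from a bulk culture cannot tell fewer expressing cells from less RNA per cell.

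Between cultures, WT cells held more LUM, FBLN1, FBLN5, FBN1, EMILIN3 and LTBP1 RNA and less EMILIN2 RNA in suspension. These 7 of 9 genes, 6 higher and 1 lower, passed where 55.7% of all genes did, 27.7% as higher and 28.0% as lower, with a median log2 fold change of 0.85 against -0.02 over all genes. In knockdown cells FBN1, LUM, LTBP1 and FBLN1 were higher and EMILIN2 and EMILIN3 were lower in suspension. These 6 of 9 genes, 4 higher and 2 lower, again stood against 55.7% of all genes, 26.8% as higher and 29.0% as lower, with a median of 0.34 against -0.01. Between the same WT groups the summed chondrocyte markers went from 74.4 to 88.3 CPM up to 234 to 250 CPM and the smooth muscle markers from 5.85 to 6.63 CPM up to 27.7 to 29.1 CPM. The epithelial sum went from 365.9 to 437.2 CPM up to 467.8 to 516.5 CPM. In knockdown cells the epithelial sum went from 554.6 to 565.7 CPM down to 387.9 to 442.9 CPM in suspension. The fibroblast sum there fell from 29.1 to 33.8 CPM to 19.1 to 20.03 CPM. The smooth muscle sum there rose from 5.18 to 6.73 CPM to 16.7 to 18.9 CPM. The part of these lists was not tested. More of all genes passed in these comparisons than in those of the knockdown, so counts of 7 and 6 stand closer to the background here. In both lines the ranges of 6 of the 9 did not overlap between cultures, where this held for 58.8% of all genes in WT and 63.8% in EXT1kd cells. The comparisons share libraries, so their counts are not independent of one another. The knockdown effect itself differed between cultures for 6 of 9 genes, where 24.0% of all genes passed, 9.45% as higher and 14.6% as lower. It was more positive in suspension for FBN1 and more negative for FBLN1, FBLN5, EMILIN2, EMILIN3 and LUM.

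**Figure D2:**
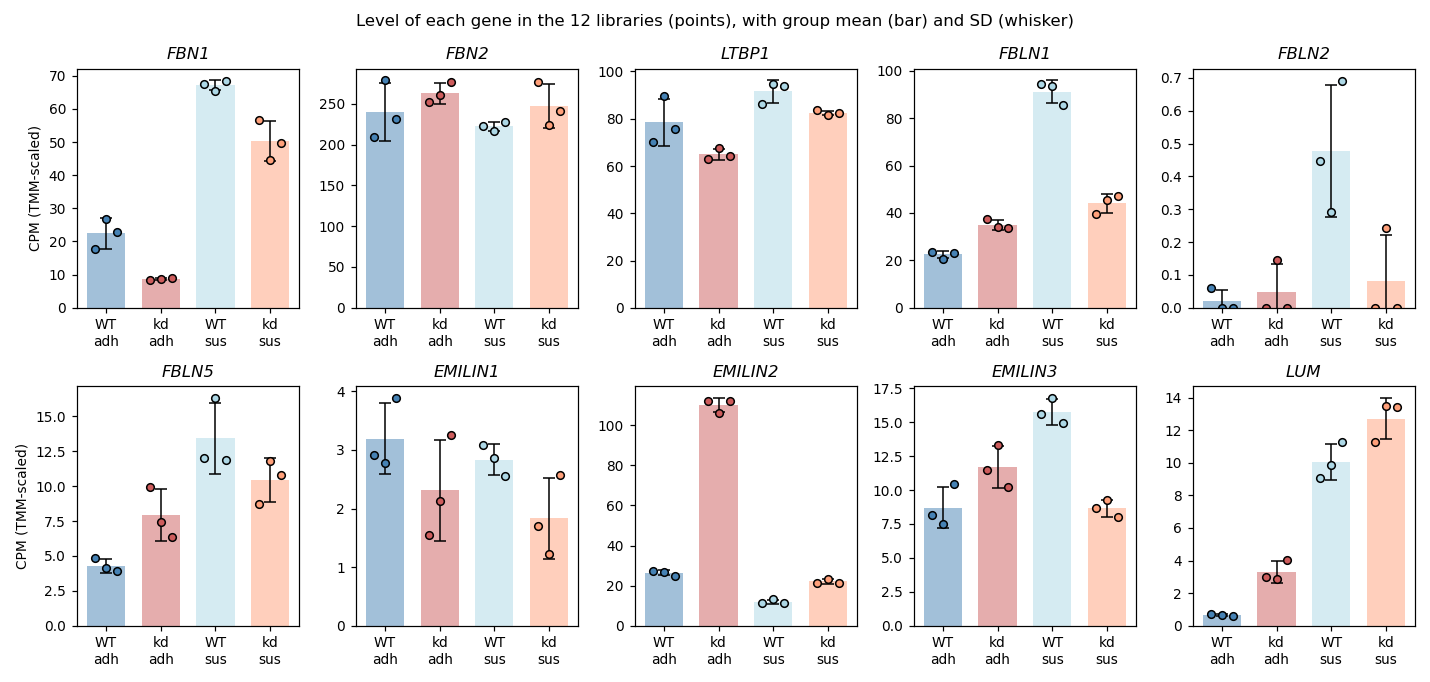
TMM-scaled CPM of each gene on the vertical axis (a scale of its own per panel) in the 4 groups on the horizontal axis: wild type (WT) and EXT1 knockdown (kd), adherent (adh) and suspension (sus). Points are libraries, bars are group means and whiskers are SD (n = 3); EMILIN2 peaks in EXT1kd adherent cells at 110 CPM and FBN1, FBLN1 and FBLN5 peak in WT suspension cells.

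FBN1 (ENSG00000166147; chromosome 15, minus strand, 48408306 to 48645849 on GRCh38, as for all positions given here) encodes the main fibrillin of adult tissues, the protein altered in Marfan syndrome. It stood at 17.6, 26.8 and 23.0 CPM in the WT adherent libraries and at 8.24, 8.63 and 9.06 CPM in the EXT1kd adherent libraries. In suspension it stood at 67.5, 65.4 and 68.5 CPM in WT and at 56.7, 44.6 and 49.7 CPM in knockdown libraries. The knockdown libraries were below every WT library of the same culture, and every suspension library was above every adherent one. FBN1 fell with the knockdown by 1.38 on the log2 scale in adherent culture (SE 0.134, edgeR adjusted p = 5.84e-07). It also fell in suspension, by 0.42 (SE 0.110, edgeR adjusted p = 0.0110). Across cultures it was higher in suspension by 1.58 in WT cells (SE 0.115, edgeR adjusted p = 1.64e-09) and by 2.54 in knockdown cells (SE 0.130, edgeR adjusted p = 1.25e-11), a 5.81-fold rise. The fall with the knockdown was smaller in suspension by 0.96 (SE 0.174, edgeR adjusted p = 0.000574).

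The suspension fall of FBN1 did not pass without EXT1kd suspension replicate 2 (-0.34, edgeR adjusted p = 0.0694) or on the log2(FPKM + 0.1) scale (-0.41, limma adjusted p = 0.0665). On the log2(FPKM + 1) scale, which understates changes of low genes, the adherent fall was -0.63 and the difference between cultures was 0.31 and did not pass (limma adjusted p = 0.112). With no filter on that scale, neither the suspension fall (-0.33, limma adjusted p = 0.0688) nor the difference between cultures (limma adjusted p = 0.231) passed. The RefSeq promoter window of FBN1 (GRCh38.p14), 250 bases before to 50 bases after the listed transcription start, is chr15:48644921-48645220 on the minus strand. It is shown because FBN1 had the deepest fall of the 9 genes in EXT1kd adherent cells. Its capitals mark GGAATG, a motif bound by TEAD factors, at position -58 from the start, which 14.0% of 35116 RefSeq promoter windows of this length hold on either strand.
FBN1: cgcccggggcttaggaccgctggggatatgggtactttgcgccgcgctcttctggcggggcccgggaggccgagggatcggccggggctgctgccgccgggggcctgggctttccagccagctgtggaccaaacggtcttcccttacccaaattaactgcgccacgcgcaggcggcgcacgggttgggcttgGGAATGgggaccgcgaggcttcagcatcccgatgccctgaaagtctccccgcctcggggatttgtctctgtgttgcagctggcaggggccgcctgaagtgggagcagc
The other motifs searched, each on both strands, were the TATA box (TATAAA), the GC box (GGGCGG), the AP-1 site (TGANTCA, N any base) and the SMAD site (CAGAC), and this window held no match to them.

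FBN2 (ENSG00000138829; chromosome 5, minus strand, 128257909 to 128659185) encodes the fibrillin best known from developing tissues. It stood at 209, 279 and 231 CPM in WT adherent, 252, 260 and 276 CPM in EXT1kd adherent, 222, 217 and 227 CPM in WT suspension and 276, 224 and 242 CPM in EXT1kd suspension libraries. All 4 comparisons of groups overlapped, and FBN2 was the steadiest of the 9 genes, with group means of log2 CPM that spanned 0.24. Its log2 fold change with the knockdown was 0.13 in adherent culture, with an interval of 2 SE from -0.05 to 0.31 (edgeR adjusted p = 0.306), and 0.15 in suspension, from -0.03 to 0.33 (edgeR adjusted p = 0.249). Between cultures it was -0.11 in wild type, from -0.29 to 0.07 (edgeR adjusted p = 0.318), and -0.09 in knockdown cells, from -0.27 to 0.09 (edgeR adjusted p = 0.426). Its knockdown effects differed by 0.02, from -0.24 to 0.28 (edgeR adjusted p = 0.928). WT adherent replicate 2 was the highest of its group for FBN1, FBN2 and LTBP1, and without it FBN2 passed as higher in EXT1kd adherent cells at 0.25 (edgeR adjusted p = 0.0149). The gene overlaps SLC27A6 on the other strand, whose mean over the 12 libraries was 4.24 CPM.

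LTBP1 (ENSG00000049323; chromosome 2, plus strand, 32946972 to 33399509) encodes a relative of the fibrillins that binds the latent form of TGF-beta and anchors it to microfibrils. It stood at 70.3, 89.4 and 75.7 CPM in WT adherent, 63.0, 67.6 and 64.2 CPM in EXT1kd adherent, 86.0, 94.8 and 94.0 CPM in WT suspension and 83.5, 81.5 and 82.2 CPM in EXT1kd suspension libraries. Both knockdown groups lay below their WT group, by little. The log2 fold change was -0.27 in adherent culture, which passed (SE 0.0816, edgeR adjusted p = 0.0177), and -0.15 in suspension, which did not (SE 0.0808, edgeR adjusted p = 0.195). In suspension against adherent culture LTBP1 was higher by 0.22 in wild type (SE 0.0807, edgeR adjusted p = 0.0249) and by 0.34 in knockdown cells (SE 0.0818, edgeR adjusted p = 0.00142). Its knockdown effects differed by 0.12, with an interval of 2 SE from -0.11 to 0.35.

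The LTBP1 calls of the adherent knockdown and of the WT culture comparison were lost under several alternatives. The adherent knockdown call was lost without WT adherent replicate 2 (-0.17, edgeR adjusted p = 0.0671), without EXT1kd adherent replicate 1 (-0.26, 0.0749) or 3 (-0.27, 0.0610), with only the 2 groups compared in the fit (-0.28, 0.0602), without a filter on FPKM (limma, 0.0809), and after the median of chromosome 2 was removed (-0.17, 0.164). The WT culture call was lost without WT adherent replicate 1 (0.15, edgeR adjusted p = 0.155) or 3 (0.19, 0.0568), and without WT suspension replicate 2 (0.20, 0.0934) or 3 (0.20, 0.0868). It was also lost with only the 2 groups in the fit (0.23, 0.0616) and without a filter on FPKM (limma, 0.0631). In knockdown cells the culture difference fell to 0.18 (adjusted p = 0.0670) once the chromosome median was removed.

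FBLN1 (ENSG00000077942; chromosome 22, plus strand, 45502238 to 45601135) encodes a fibulin of basement membranes and elastic fibres. It stood at 23.5, 20.7 and 23.3 CPM in WT adherent and at 37.4, 34.0 and 33.5 CPM in EXT1kd adherent libraries. In suspension it stood at 94.3, 93.7 and 85.5 CPM in WT and at 39.6, 45.7 and 47.2 CPM in knockdown libraries. The knockdown libraries thus lay above wild type in adherent culture and below it in suspension, with no overlap in either. FBLN1 rose with the knockdown by 0.63 in adherent culture (SE 0.0899, edgeR adjusted p = 4.41e-05) and fell by 1.05 in suspension (SE 0.0842, edgeR adjusted p = 9.38e-08). The difference between these effects was -1.68 (SE 0.123, edgeR adjusted p = 1.60e-08). Between cultures FBLN1 rose in suspension by 2.02 in WT cells, a 4.05-fold rise (SE 0.0881, edgeR adjusted p = 1.26e-12), and by 0.34 in knockdown cells (SE 0.0869, edgeR adjusted p = 0.00270). All 5 FBLN1 calls passed in every alternative tried.

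The RefSeq promoter window of FBLN1 (GRCh38.p14) is chr22:45502633-45502932 on the plus strand, and is shown because FBLN1 moved in opposite directions with the knockdown in the 2 cultures. Its capitals mark GTCTG, the reverse complement of the SMAD motif CAGAC, at position -177, and GGGCGG, the GC box, at position -36. CAGAC lies in 45.3% and GGGCGG in 45.0% of the 35116 windows. GC content was 78.0% in this window and 58.7% at the median of all windows.
FBLN1: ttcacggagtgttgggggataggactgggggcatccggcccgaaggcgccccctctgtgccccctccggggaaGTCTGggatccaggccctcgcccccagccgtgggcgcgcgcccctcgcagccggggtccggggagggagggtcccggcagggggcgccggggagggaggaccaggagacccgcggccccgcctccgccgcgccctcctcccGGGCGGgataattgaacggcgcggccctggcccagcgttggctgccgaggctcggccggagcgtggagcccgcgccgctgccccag
The TATA, AP-1 and TEAD motifs were not found in this window on either strand.

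FBLN5 (ENSG00000140092; chromosome 14, minus strand, 91869412 to 91947987) encodes a fibulin that binds tropoelastin and integrins and is needed for elastic fibre assembly in mice. It stood at 4.85, 4.14 and 3.89 CPM in WT adherent, 9.97, 7.46 and 6.33 CPM in EXT1kd adherent, 12.04, 16.3 and 11.9 CPM in WT suspension and 8.75, 11.8 and 10.8 CPM in EXT1kd suspension libraries. Every EXT1kd adherent library was above every WT adherent one, and the 2 suspension groups lay just apart. FBLN5 rose with the knockdown by 0.89 in adherent culture (SE 0.189, edgeR adjusted p = 0.00178). In suspension its log2 fold change was -0.36 and did not pass (SE 0.167, edgeR adjusted p = 0.133). In suspension against adherent culture FBLN5 rose by 1.65 in WT cells (SE 0.181, edgeR adjusted p = 3.64e-07), and in knockdown cells its change was 0.40 (SE 0.174, edgeR adjusted p = 0.0585). The knockdown effects differed by -1.25 (SE 0.252, edgeR adjusted p = 0.00145).

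The culture change of FBLN5 in knockdown cells passed under 8 alternatives, among them DESeq2 (0.42, adjusted p = 0.0456), the fit without EXT1kd adherent replicate 1 (0.64, edgeR adjusted p = 0.00842) and the fit without EXT1kd suspension replicate 1 (0.55, edgeR adjusted p = 0.0177). Once the median of chromosome 14 was removed it was 0.75 (adjusted p = 0.00129). On the log2(FPKM + 1) scale with no filter the adherent rise was 0.46 (limma adjusted p = 0.0650) and the difference between cultures -0.71 (limma adjusted p = 0.0504), and neither passed.

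FBLN2 (ENSG00000163520; chromosome 3, plus strand, 13549131 to 13638422), a fibulin of basement membranes and developing tissues, was close to absent from these cells and did not pass the filter. It had 1, 0 and 0 reads in WT adherent, 0, 2 and 0 in EXT1kd adherent, 8, 5 and 10 in WT suspension and 0, 4 and 0 in EXT1kd suspension libraries. Only the WT suspension group had reads in all 3 libraries. The summed 23 reads there against 1 in WT adherent libraries gave a ratio of 25.6, with an exact binomial interval at 95% from 4.15 to 1053. The 23 reads against 4 in EXT1kd suspension libraries gave a ratio of 5.70, with an interval from 1.95 to 22.7. These intervals cover counting error only. With no filter the first difference had an edgeR adjusted p of 0.00103 and the second of 0.0792.

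EMILIN2 (ENSG00000132205; chromosome 18, plus strand, 2847030 to 2915993) encodes an EMILIN, a family of secreted proteins with a C1q-like end that associate with elastic fibres. It stood at 27.4, 27.0 and 24.9 CPM in WT adherent libraries and at 112, 106 and 112 CPM in EXT1kd adherent libraries. In suspension it stood at 11.5, 13.1 and 11.1 CPM in WT and at 21.4, 23.5 and 21.5 CPM in knockdown libraries. The 4 groups did not overlap at all, with EXT1kd adherent far above the rest. EMILIN2 rose with the knockdown 4.18-fold in adherent culture (log2 fold change 2.06, SE 0.0797, edgeR adjusted p = 2.30e-12). In that comparison 0.316% of the genes tested, 54 genes with EMILIN2 itself, had as high a log2 fold change. The rise in suspension was 1.85-fold (log2 fold change 0.89, SE 0.0905, edgeR adjusted p = 2.03e-06), smaller by 1.17 on the log2 scale (SE 0.120, edgeR adjusted p = 1.5e-06). In suspension against adherent culture EMILIN2 fell by 1.14 in WT cells (SE 0.0888, edgeR adjusted p = 3.54e-09) and fell by 2.32 in knockdown cells (SE 0.0815, edgeR adjusted p = 5.01e-14). All 5 calls passed in every alternative tried.

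The RefSeq promoter window of EMILIN2 (GRCh38.p14) is chr18:2846756-2847055 on the plus strand, and is shown because EMILIN2 gained more FPKM than any other of the 10 genes in EXT1kd adherent cells. Its capitals mark a run in which the TEAD motif GGAATG at position -221 shares 2 bases with TGAGTCA, a form of the AP-1 motif TGANTCA, at position -217. They also mark the GC box at positions -68 and 32. The TATA and SMAD motifs were not found in it. GGAATG lies in 14.0% and TGANTCA in 7.71% of all windows.
EMILIN2: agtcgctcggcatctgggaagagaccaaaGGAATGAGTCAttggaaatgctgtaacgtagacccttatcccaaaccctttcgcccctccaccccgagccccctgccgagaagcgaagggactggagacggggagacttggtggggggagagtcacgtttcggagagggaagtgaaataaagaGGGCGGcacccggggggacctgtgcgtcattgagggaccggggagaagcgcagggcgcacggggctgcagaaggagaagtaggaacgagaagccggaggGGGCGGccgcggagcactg
Among the 7 of the 10 genes with a RefSeq window (11 windows in all; none for EMILIN1, EMILIN3 and LUM), EMILIN2 was the gene with a TGANTCA match, EMILIN2 and FBN1 were the 2 with GGAATG, 5 had GGGCGG, 4 had CAGAC and 1, FBLN5, had TATAAA. Matches are letters in a window and were not tied to binding.

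EMILIN1 (ENSG00000138080; chromosome 2, plus strand, 27078567 to 27086408) encodes the EMILIN of blood vessels and elastic tissues, known in mice to hold back TGF-beta maturation. It stood at 2.91, 2.78 and 3.89 CPM in WT adherent, 1.56, 2.12 and 3.25 CPM in EXT1kd adherent, 3.08, 2.87 and 2.56 CPM in WT suspension and 1.70, 1.22 and 2.58 CPM in EXT1kd suspension libraries. The groups overlapped in all 4 comparisons. Knockdown libraries were lower on average, with a log2 fold change of -0.47 in adherent culture, whose interval of 2 SE ran from -1.02 to 0.08 (edgeR adjusted p = 0.229), and of -0.62 in suspension, from -1.20 to -0.04 (edgeR adjusted p = 0.138). Between cultures the change was -0.18 in wild type, from -0.71 to 0.36, and -0.33 in knockdown cells, from -0.93 to 0.27, and neither passed. The ratio of its summed reads, knockdown over WT and scaled to library size, was 0.718 in adherent culture (exact binomial interval at 95% from 0.562 to 0.914, counting error only) and 0.651 in suspension (0.494 to 0.853). Libraries of 1 group differed among themselves, with 27, 29 and 57 reads in EXT1kd adherent and 25, 20 and 46 reads in EXT1kd suspension libraries. The suspension value passed without EXT1kd suspension replicate 3 (-0.97, edgeR adjusted p = 0.0446).

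EMILIN3 (ENSG00000183798; chromosome 20, minus strand, 41359966 to 41366827), an EMILIN known from developing cartilage and bone of mice, stood at 8.19, 7.49 and 10.4 CPM in WT adherent and 11.5, 13.3 and 10.3 CPM in EXT1kd adherent libraries. In suspension it stood at 15.6, 16.8 and 14.9 CPM in WT and at 8.68, 9.24 and 8.02 CPM in knockdown libraries. WT suspension libraries were the highest, and the adherent groups overlapped. EMILIN3 was higher with the knockdown in adherent culture by 0.41 (SE 0.137, edgeR adjusted p = 0.0315) and lower in suspension, with a log2 fold change of -0.87 (SE 0.135, edgeR adjusted p = 0.000183). The effects differed by -1.28 (SE 0.193, edgeR adjusted p = 0.000112). Between cultures it was higher in suspension by 0.85 in WT cells (SE 0.134, edgeR adjusted p = 2.51e-05) and fell by 0.43 in knockdown cells (SE 0.139, edgeR adjusted p = 0.0132). EMILIN3 shares 617 bases with LPIN3 on the other strand, and the labels do not say whether counting used strand. LPIN3 stood at 11.4, 15.2, 16.1 and 18.8 CPM over the 4 groups in the same order. With the knockdown its log2 fold change was 0.41 in adherent culture (edgeR adjusted p = 0.0767), the same size as that of EMILIN3, and 0.22 in suspension (edgeR adjusted p = 0.371), where that of EMILIN3 was -0.87. Between cultures LPIN3 rose by 0.49 in WT cells (edgeR adjusted p = 0.0172), and its change in knockdown cells was 0.30 (edgeR adjusted p = 0.126). The part of shared reads in the EMILIN3 values was not tested.

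The adherent call of EMILIN3 was lost without WT adherent replicate 1 (0.37, edgeR adjusted p = 0.0975) or 2 (0.31, 0.101), without EXT1kd adherent replicate 1 (0.42, 0.0752) or 2 (0.31, 0.157), with only the 2 groups in the fit (0.0850) and without a filter on FPKM (limma, 0.10). Its fall between cultures in knockdown cells was lost without EXT1kd adherent replicate 2 (-0.30, edgeR adjusted p = 0.108), without EXT1kd suspension replicate 3 (-0.38, 0.0555) and without a filter on FPKM (limma, 0.0526).

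LUM (ENSG00000139329; chromosome 12, minus strand, 91102629 to 91111831) encodes lumican, the keratan sulfate proteoglycan that orders collagen fibrils in cornea and skin. It stood at 0.728, 0.625 and 0.576 CPM in WT adherent libraries, from 12, 11 and 12 reads, and at 3.00, 2.85 and 4.05 CPM in EXT1kd adherent libraries. In suspension it stood at 9.07, 9.89 and 11.3 CPM in WT and at 11.3, 13.5 and 13.4 CPM in knockdown libraries. The adherent groups were far apart, whereas the suspension groups nearly touched. LUM rose with the knockdown 5.15-fold in adherent culture (log2 fold change 2.37, SE 0.238, edgeR adjusted p = 9.48e-07), where 0.205% of the genes tested had as high a log2 fold change. In suspension its log2 fold change was 0.34 and did not pass (SE 0.142, edgeR adjusted p = 0.0940), although it did with only the suspension groups in the fit (0.36, edgeR adjusted p = 0.0289). The effects differed by -2.02 (SE 0.282, edgeR adjusted p = 5.12e-05).

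In suspension against adherent culture LUM rose 15.6-fold in WT cells (log2 fold change 3.96, SE 0.208, edgeR adjusted p = 1.81e-11) and 3.83-fold in knockdown cells (log2 fold change 1.94, SE 0.160, edgeR adjusted p = 7.40e-09). On summed reads the WT ratio was 15.7, with an exact binomial interval at 95% from 11.1 to 22.8, and the adherent knockdown ratio was 5.23, from 3.61 to 7.77. On the log2(FPKM + 1) scale the adherent knockdown rise was 0.78 (limma adjusted p = 0.000226), the WT culture rise was 1.83 (limma adjusted p = 5.16e-08), and the difference between knockdown effects was -0.51, which passed with the filter (limma adjusted p = 0.0200) and not without it (limma adjusted p = 0.0586).

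**Figure D3:**
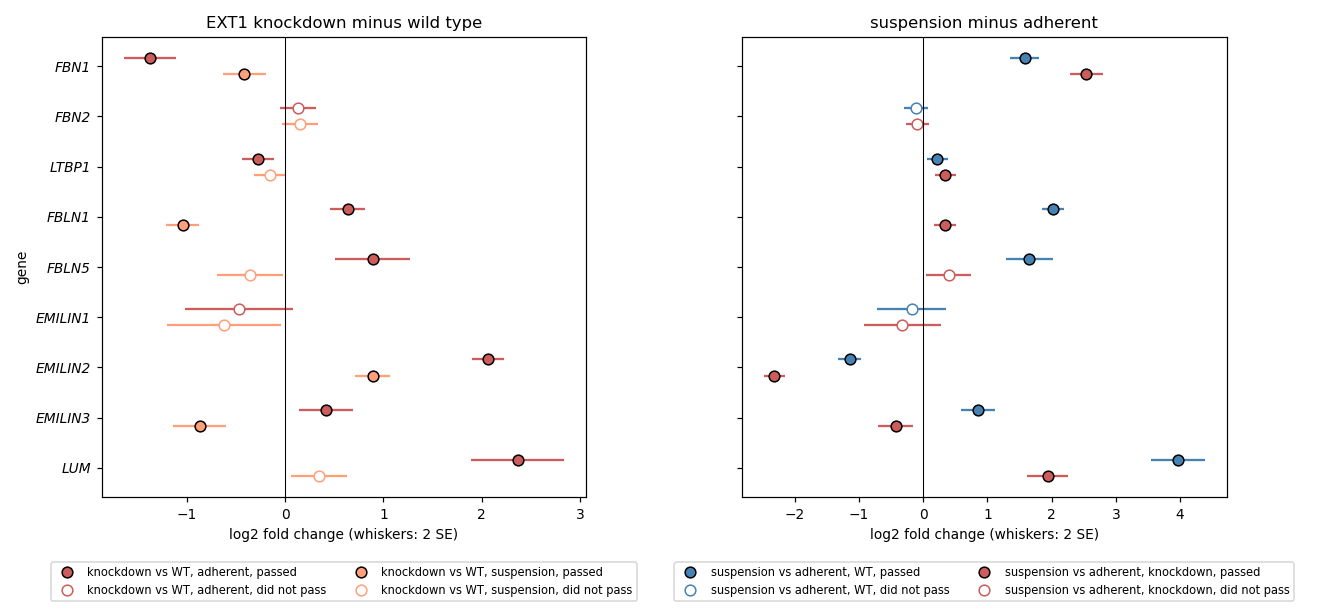
Log2 fold change on the horizontal axis for the 9 genes tested on the vertical axis, with whiskers of 2 SE; the left panel holds knockdown minus wild type and the right panel suspension minus adherent, and filled points passed edgeR's test at an adjusted p of 0.05. FBLN1 and EMILIN3 lie on opposite sides of 0 for the knockdown in adherent (0.63 and 0.41) and suspension culture (-1.05 and -0.87), while FBN2 lies near 0 throughout.

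On the median, the genes around each locus did not move as far as the genes that changed most. In EXT1kd adherent cells the tested genes within 5 Mb of EMILIN2 had a median log2 fold change of 0.06 (36 genes), those around FBN1 of -0.18 (76 genes) and those around LUM of -0.27 (38 genes). Medians of whole chromosomes stood off 0 in both cultures. In EXT1kd adherent cells the median of 272 genes on chromosome 18, which carries EMILIN2, was 0.18. Those of chromosomes 5 and 12 were -0.13 and -0.12. In EXT1kd suspension cells the median of 545 genes on chromosome 14 was -0.36, the same as the value of FBLN5 on that chromosome, -0.36. The median of 442 genes on chromosome 22 was -0.28, and FBLN1 on that chromosome, at -1.05, lay below it.

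**Figure D4:**
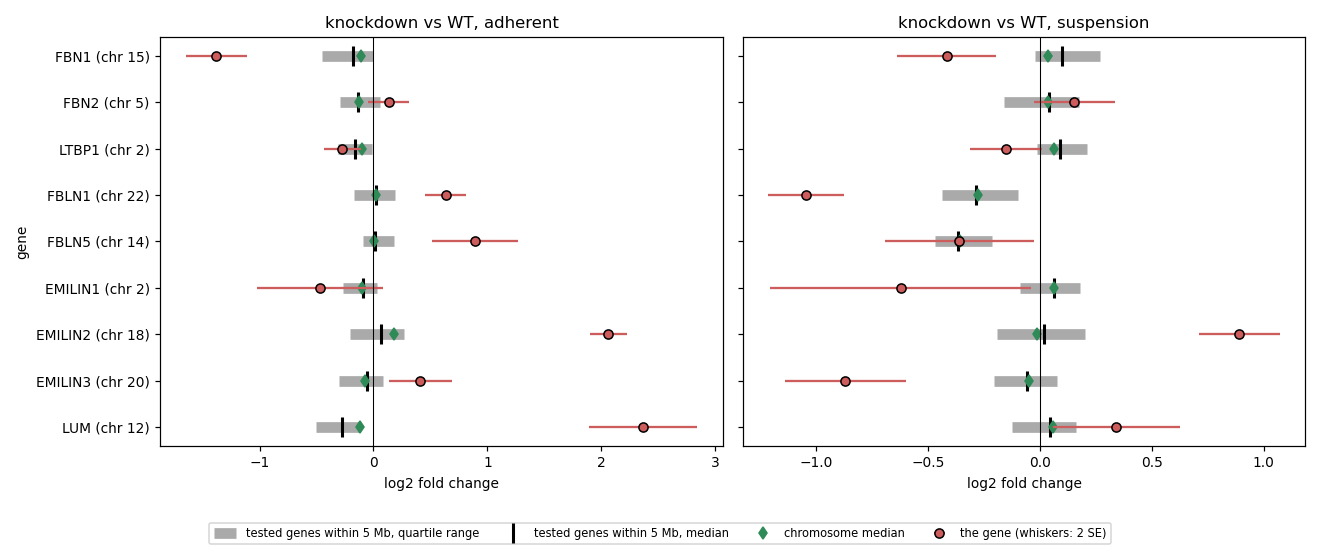
Log2 fold change with the knockdown in adherent (left) and suspension (right) culture on the horizontal axis for the 9 genes on the vertical axis (whiskers 2 SE), beside the quartile range and median of tested genes within 5 Mb and the median of the chromosome. FBLN5 in suspension lies on its chromosome's median of -0.36, whereas EMILIN2 lies outside the quartile range of its neighbours in both panels.

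Partner genes of microfibrils and elastic fibres were counted from a list of 27, of which 21 were tested. Elastin itself (ELN) was nearly silent, with 2, 0, 0 and 2 reads summed over the 4 groups in the order above. In EXT1kd adherent cells 3 partners rose and 1 fell, a count of 4 of 21 where 27.1% of all genes passed. MFAP2, a small microfibril-associated glycoprotein, rose from 16.8 ± 2.64 to 40.7 ± 0.698 CPM (SD, n = 3; log2 fold change 1.28, edgeR adjusted p = 8.78e-08). EFEMP1, a fibulin-family protein, rose from 13.8 ± 1.62 to 24.2 ± 3.56 CPM (0.81, edgeR adjusted p = 2.93e-05), and ADAMTS6, a secreted protease, from 1.70 ± 0.338 to 2.97 ± 0.187 CPM (0.81, edgeR adjusted p = 0.0269). The 1 that fell was LOX, a lysyl oxidase that crosslinks elastin and collagen (-0.31, edgeR adjusted p = 0.0476). The LOX call was lost under 18 of 24 alternatives, among them the replicate block (-0.30, edgeR adjusted p = 0.0627), no TMM scaling (-0.28, edgeR adjusted p = 0.0644) and the removal of the chromosome median (-0.18, adjusted p = 0.299). The call of ADAMTS6 was lost without WT adherent replicate 3 (0.68, edgeR adjusted p = 0.0845), without EXT1kd adherent replicate 2 (0.80, 0.0569) or 3 (0.76, 0.0808), and on FPKM scales, where the count of partners past the threshold was 2.

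In suspension 9 of the 21 partners passed, each of them lower in knockdown cells, where 20.9% of all genes passed in either direction and 12.6% as lower; the median of the 21 was -0.27 against -0.001 over all genes. Without WT suspension replicate 2 the count was 6. Some chromosomes had medians below 0 in this comparison, such as -0.36 on chromosome 14 and -0.28 on chromosome 22. The count was not repeated with chromosome medians removed, and their part in it was not tested. LTBP2, a fibrillin relative, fell from 18.2 ± 1.59 to 9.42 ± 0.540 CPM (log2 fold change -0.95, edgeR adjusted p = 2.32e-05). ADAMTS10, a protease that binds fibrillin, fell from 3.36 ± 0.0884 to 1.54 ± 0.269 CPM (-1.12, edgeR adjusted p = 0.00253). ADAMTSL4, an ADAMTS-like protein of the ciliary zonule, fell from 1.64 ± 0.619 to 0.503 ± 0.215 CPM (-1.73, edgeR adjusted p = 0.0102), a call that was lost without WT suspension replicate 2 (-1.38, edgeR adjusted p = 0.0715) and on the log2(FPKM + 1) scale (limma adjusted p = 0.0542).

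Across cultures 14 partners rose and 3 fell in suspension in WT cells (HMCN1, MFAP4 and FURIN, at -0.51, -1.06 and -0.91), and 9 rose and 6 fell in knockdown cells, where 55.7% of all genes passed in each line. LOXL1, an enzyme that crosslinks elastin, rose from 5.39 ± 1.06 to 27.5 ± 1.53 CPM in WT cells (log2 fold change 2.35, edgeR adjusted p = 5.88e-11) and from 5.52 ± 0.703 to 22.8 ± 2.14 CPM in knockdown cells (2.04, edgeR adjusted p = 4.58e-10). ADAMTS10 rose by 1.97 in WT (edgeR adjusted p = 2.45e-06) and 1.76 in knockdown cells (edgeR adjusted p = 0.000104). FBN3, the remaining human fibrillin, had 3 summed reads in WT adherent and 146 in WT suspension libraries, a ratio of 54.1 with an exact binomial interval at 95% from 18.2 to 265. In knockdown cells FBN3 went from 12 to 91 reads, a ratio of 7.52 with an interval from 4.10 to 15.1. These intervals cover counting error only. FBN3 passed the filter on low counts only through its suspension libraries, so its edgeR p-values are not given as support. It is still counted among the partners that passed. Of the 21 partners 6 passed the test of the difference between knockdown effects, each with a lower effect in suspension. This count stood near the share of all genes, of which 24.0% passed, 9.45% as higher and 14.6% as lower. Besides FBN3 the 6 were MFAP2 (-1.34), EFEMP1 (-1.23), LTBP2 (-0.99), ADAMTS17 (-0.60) and LTBP3 (-0.45).

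**Figure D5:**
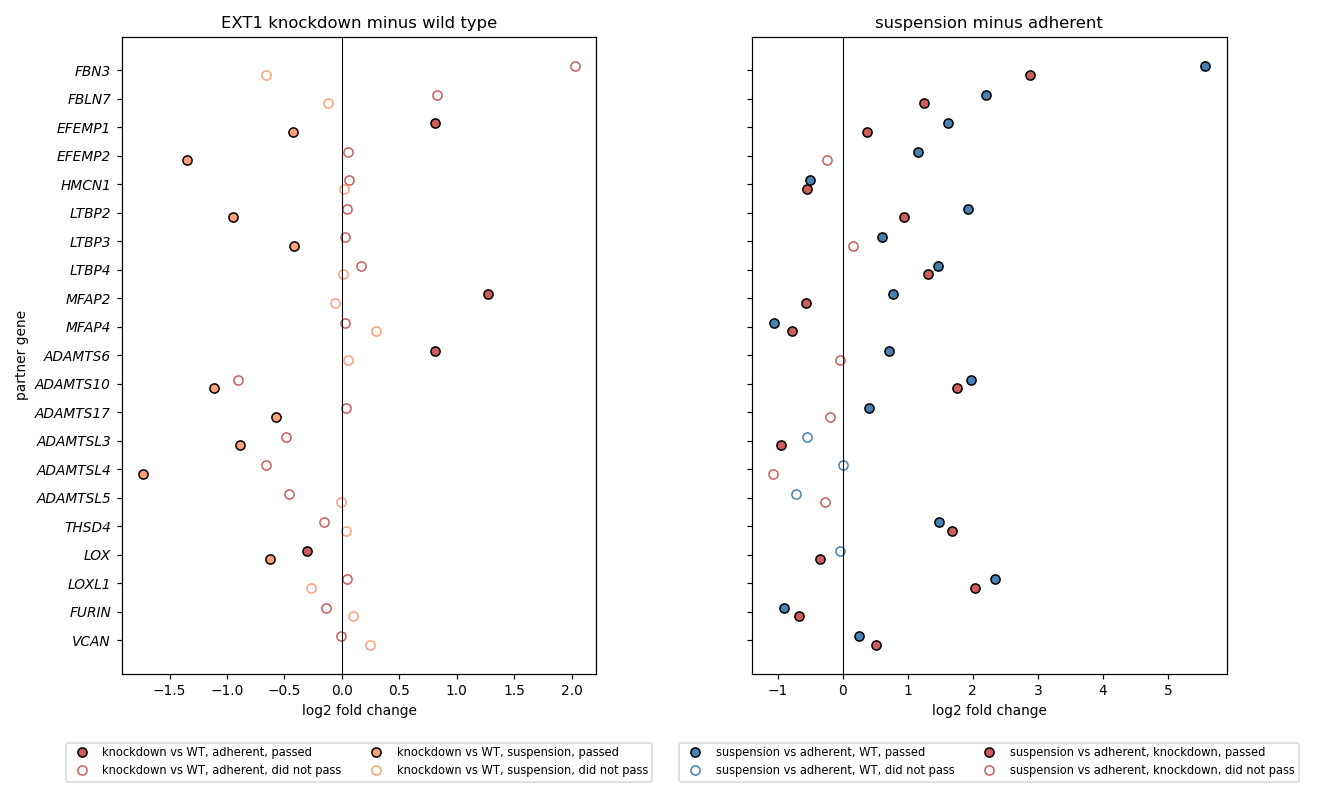
Log2 fold change on the horizontal axis of the 21 tested partner genes on the vertical axis, knockdown minus wild type (left) and suspension minus adherent (right), with filled points past an edgeR adjusted p of 0.05. The filled suspension points of the left panel all lie below 0, from LTBP3 and EFEMP1 at -0.42 to ADAMTSL4 at -1.73.

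Small leucine-rich proteoglycans other than LUM were hardly measured, since 2 of 14 passed the filter. TSKU, tsukushi, a member known in vertebrate embryos as a binder of growth factors, stood at 14.2 ± 3.49 CPM in WT adherent and 28.9 ± 1.16 in EXT1kd adherent cells (log2 fold change 1.02, edgeR adjusted p = 1.93e-05). In suspension it went from 15.2 ± 1.27 to 10.98 ± 0.663 CPM (-0.47, edgeR adjusted p = 0.0264), and in knockdown cells its change from adherent to suspension culture was -1.40 (edgeR adjusted p = 8.45e-08). The suspension call of TSKU was lost in 7 of 24 alternatives, among them the fits without WT suspension replicate 2 (-0.39, edgeR adjusted p = 0.119) and without EXT1kd suspension replicate 1 (-0.43, 0.0840) or 3 (-0.43, 0.0810), and with the median of its chromosome removed (-0.24, 0.292).

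Of TGF-beta ligands, receptors and activating integrins, the partners of LTBP1, 9 of 11 were tested. In EXT1kd adherent cells 4 rose and 1 fell, against 27.1% of all genes past the threshold. TGFB1, a ligand stored in complex with LTBP1, rose from 21.8 ± 2.47 to 39.9 ± 3.48 CPM (log2 fold change 0.87, edgeR adjusted p = 6.49e-06). Its receptors TGFBR1 and TGFBR2 rose by 0.56 (edgeR adjusted p = 1.58e-05) and 0.63 (edgeR adjusted p = 1.88e-05). Over 24 alternatives, among them the removal of chromosome medians, these values went as low as 0.29 and 0.38, and both stayed past the threshold. In suspension 1 of the 9 passed, against 20.9% of all genes. It was ITGAV, an integrin subunit that takes part in TGF-beta release, from 100.3 ± 1.76 to 138 ± 5.34 CPM (0.46, edgeR adjusted p = 0.000116). That count was 3 without WT adherent replicate 2 or 3 and with only the suspension groups in the fit, and 2 without TMM scaling. Between cultures 3 rose and 1 fell in suspension in WT cells, and 3 rose and 3 fell in knockdown cells, where 55.7% of all genes passed in each line. ITGB8 rose by 1.23 in WT (edgeR adjusted p = 2.28e-06) and 1.48 in knockdown cells (edgeR adjusted p = 2.53e-07), ITGAV changed by -0.60 and -0.62 (edgeR adjusted p = 5.39e-07 and 2.75e-07), TGFB1 rose by 0.96 in WT cells (edgeR adjusted p = 2.53e-07), and TGFB2 rose by 0.63 in knockdown cells (edgeR adjusted p = 0.0331). TGFB2 lost its call without EXT1kd adherent replicate 2 (0.42, edgeR adjusted p = 0.134) or EXT1kd suspension replicate 3 (0.52, edgeR adjusted p = 0.127).

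Of 12 genes known as TGF-beta targets 11 were tested, and in EXT1kd adherent cells 7 rose where 27.1% of all genes passed and 15.2% as higher. SMAD7, an inhibitor of the pathway, rose from 66.6 ± 11.7 to 98.7 ± 4.82 CPM (log2 fold change 0.57, edgeR adjusted p = 0.000339). The collagen gene COL1A1, also a fibroblast marker above, rose by 0.68 (edgeR adjusted p = 9.02e-05), and the cell cycle inhibitor gene CDKN2B by 0.70 (edgeR adjusted p = 1.64e-06). Over 24 alternatives, among them the removal of chromosome medians, SMAD7, COL1A1 and CDKN2B went as low as 0.39, 0.46 and 0.43. Each stayed past the threshold. In suspension 2 rose and 2 fell, against 20.9%, and those that fell were the transcription factor gene SNAI2 (-1.33, edgeR adjusted p = 0.00460) and CCN2 (-0.55, edgeR adjusted p = 0.00531), the gene of a matricellular protein. CDKN2B rose there by 0.50 (edgeR adjusted p = 9.83e-05), and its call and that of CCN2 were lost once the chromosome median was removed (adjusted p = 0.0945 and 0.0836). Between cultures 5 rose and 2 fell in suspension in WT cells, and 2 rose and 5 fell in knockdown cells, again against 55.7% of all genes in each line. SMAD7 changed by -1.64 and -2.51 (edgeR adjusted p = 3.66e-10 and 1.37e-12) and SKIL, another inhibitor, by -1.50 and -1.56 (edgeR adjusted p = 4.93e-10 and 2.14e-10), in WT and knockdown cells, while TGIF1, a repressor gene, rose by 0.63 in WT cells (edgeR adjusted p = 2.78e-06) and COL1A1 changed by -0.85 in knockdown cells (edgeR adjusted p = 1.41e-06). The list thus held inhibitors of the pathway as well as matrix genes, and they did not all move one way between cultures.

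For the 4 genes whose group means varied most, the genes with the most similar profile over the 12 libraries were found among 11093 protein-coding genes by the root mean square difference of centred log2 CPM. This is a description of likeness, with no test. LUM was nearest to OAS3 (0.41), UBE2L6 (0.44) and MYOF (0.44), where the median gene differed by 1.45. FBN1 was nearest to EDA2R (0.20), IFI16 (0.25) and SPOCK1 (0.26) against a median of 1.18. FBLN1 was nearest to MACROD1 (0.18), DCHS1 (0.21) and ANK1 (0.21) against a median of 0.77. EMILIN2 had looser neighbours in ERVMER34-1 (0.53), SLC3A2 (0.54) and VGLL3 (0.54) against a median of 1.15. MACROD1 had the smallest difference of those listed, but the median difference from FBLN1 was also the smallest of the 4 medians. MACROD1 stood at 9.52, 13.3, 35.7 and 18.7 CPM on average in WT adherent, EXT1kd adherent, WT suspension and EXT1kd suspension cells, next to 22.5, 34.9, 91.2 and 44.1 CPM for FBLN1.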

How the data were processed

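Poly-A RNA of 12 HEK293 libraries had been sequenced on an Illumina platform, per the labels' protocols; titles give the 4 groups of 3. The authors deposited a table of raw read counts per gene and a table of FPKM, those counts scaled to gene length and library size. HISAT2, featureCounts 1.5.0 and GRCh38 are named in the submitters' processing notes; the HISAT2 version, annotation release and strand setting are not stated there. Since the labels' protocols name directional and non-directional libraries alike, overlapping genes on opposite strands may share reads. Depth ran from 13.9 to 21.4 M counted reads, which leaves a gene of few reads imprecise.

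The count table went through edgeR 4.0.16 (R 4.3.3): filterByExpr with a minimum count of 10, TMM scaling, group means over all 12 libraries and quasi-likelihood F-tests of 5 contrasts, with Benjamini-Hochberg adjustment over the 17115 genes left and a threshold of 0.05. The fit was also run on simulated counts, with the same dispersion for all genes and changes in EXT1kd adherent libraries only. That setting lacks the unequal spread of the real groups, and its outcome is not given here. An SE is the size of the log2 fold change over the root of its F. CPM is TMM-scaled. Counting intervals are exact binomial at 95% on summed reads and cover counting error only.

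Members and lists were chosen with earlier results of these data known. Named are the 10 members, EXT1, ELN, per list and comparison of 2 groups up to 3 genes past the threshold with the largest change and a mean CPM of at least 1, and the 3 nearest profiles (mean CPM at least 5) of the 4 members whose group means varied most. Other genes (LPIN3, SLC27A6, LOX, HMCN1, MFAP4, FURIN, the remaining partners with a different effect between cultures, single markers) were named after their values were seen. No 2 libraries of a group agreed within sampling noise (chi-square per degree of freedom 2.50 to 23.6). Alternatives used other scaling, filters and scales, DESeq2 1.42.0, limma 3.58.1, fits without each library, and, chosen after seeing the data, the same for list genes.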

Additional observations from a re-analysis of the deposited data

Results flagged for a closer look

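The effect of the EXT1 knockdown differed between the cultures for 6 of the 9 genes tested, by edgeR's test of the difference itself. The difference, suspension minus adherent on the log2 scale, was 0.96 for FBN1, whose fall with the knockdown was deeper in adherent culture. It was -1.68 for FBLN1 and -1.28 for EMILIN3, both higher with the knockdown in adherent culture and lower in suspension. The adherent rise of EMILIN3 had overlapping group ranges and lost its call in 6 of 24 alternatives, unlike that of FBLN1. The difference was -1.25 for FBLN5 and -2.02 for LUM, which rose in adherent culture and did not pass in suspension. It was -1.17 for EMILIN2, which rose in both cultures and more in adherent cells. Of all genes tested 24.0% passed this test.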

How the results depend on the processing

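Over 24 alternatives per comparison of 2 groups, and 23 for the difference between cultures, the 9 tested genes gave 1071 alternative values. Of these, 1030 stayed on the same side of the threshold, 30 fell short of it and 11 newly passed. A change of sign with either value past the threshold was found in 0. Some values that did not pass either way changed sign. The difference between knockdown effects for EMILIN1 was -0.15 with all 12 libraries and up to 0.21 without 1 library. Of the 45 values as reported 31 kept their side of the threshold throughout, and the others are given beside their genes. With log2(FPKM + 1) and no filter, the genes past the threshold numbered 2891 for the adherent knockdown, 2266 for the suspension knockdown and 2571 for the difference between cultures, and 4 and 3 of the genes described here passed in the first and the last. The pseudocount of 1 FPKM shrinks changes of genes near or below it. With only the 2 groups in the fit, 3067 genes passed for the adherent knockdown. Leaving out 1 library gave between 2208 and 4691 genes for the suspension knockdown, with 2208 without wild-type suspension replicate 2 and 2380 without replicate 3. With the replicate number as a block, 4490, 3441, 9480, 9463 and 4019 genes passed in the 5 contrasts and 7, 4, 7, 6 and 6 of the genes described here, with no call among them changed; in adherent knockdown cells LPIN3 passed (0.41, adjusted p = 0.0418) and LOX did not (-0.30, adjusted p = 0.0627). Same-numbered libraries did not deviate together (correlations of -0.196 to 0.180, over 0.1 in 1 of 18 pairs, against 5 of 36 pairs with different numbers), so the numbers were not taken as pairs. At 13.9 to 21.4 M reads per library, FBLN2 was limited by counting, and small changes of it were not detectable at this depth.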
